A study of Homo sapiens with 30 samples.

Results

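The serpin genes described here are 26 of the 39359 rows of the count table, and of its 17781 protein-coding rows, chosen because their Ensembl identifier belongs to a protein-coding gene with a symbol starting SERPIN. Of these, 16 were expressed, with 10 or more counts in all 3 libraries of at least 1 of the 10 groups, and 10 were not. The cells were H1299, a human lung carcinoma line that carries no p53, transiently transfected with a plasmid and sorted on the GFP that each plasmid also encodes, so every library is of transfected cells of 1 line, and p53, where a plasmid held it, was expressed from a plasmid promoter. The plasmids held GFP alone (pGFP), wild type p53, RW mutant p53 with tryptophan in place of arginine at codon 248, or wild type p53 with an O6-methylguanine placed on the template strand at codon 248 (p53 O6-meG). O6-methylguanine can be misread during transcription, which is called transcriptional mutagenesis (TM), so that part of the transcripts encode the RW mutant. In p53 TM, the same O6-meG plasmid was used in cells given 10 uM O6-benzylguanine, which inactivates AGT, the enzyme that repairs the lesion. Cells were collected 6 h and 24 h after transfection, in 3 biological replicates for each of the 10 groups. O6-benzylguanine was given to no other group, so its own effect and that of TM cannot be told apart.

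Serpins are a superfamily that shares 1 fold, in which an exposed reactive centre loop acts as bait for a protease. An inhibitory serpin is cleaved by its target, snaps into a relaxed form and holds the protease in a covalent complex, so that each molecule works once. Clade A members are mostly plasma proteins made by the liver, clade B members act mainly inside cells, and clade E members control plasminogen activation and cell surface proteolysis. Several members have lost inhibition and serve as chaperones, hormone carriers or secreted signals. SERPINB5 is known as a gene to which p53 binds.

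Whole-library measurements set the limits of these values. Libraries held 32302699 to 71950532 counts, so 3 counts corresponded to 0.0442 to 0.0879 CPM, the library-scaled count used as the level throughout. All 8 p53 response genes used as a check rose with the wild type plasmid at both times. In p53 TM, 3 of the 8 rose against pGFP at 6 h and all 8 at 24 h. Their median log2 fold change at 24 h was 2.66 in p53 TM and 3.13 with wild type p53, and 2 were lower in p53 TM than with wild type p53. Of the 6 h libraries, 2 have a title naming both p53 O6-meG and p53 TM, replicate 2 of each, and neither entered the fit or the group means. The epithelial keratins KRT8 and KRT18 and the mesenchymal genes VIM, CDH2 and FN1 were present in every library, whereas the epithelial genes KRT19, EPCAM and CDH1 were at most 0.381 CPM. Summed levels were at most 1.2 CPM for 3 alveolar markers, 1.83 CPM for the leukocyte markers, 1.65 CPM for the endothelial markers and 1.33 CPM for the hepatocyte markers ALB, APOA1 and TTR.

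The 8 serpins that changed with wild type p53 at 24 h include 6 with a promoter entry in RefSeq, and the 250 bases before the start of each are shown because the comparisons turn on these genes. SERPINA1, SERPINE2 and SERPINH1 have 2 starts each, and the one with the fewest mismatches to the element below is shown. The sequences come from RefSeq on GRCh38.p14 and read 5′ to 3′ on the gene's strand. Capitals mark a match to the p53 consensus element, taken as 2 copies of the 10-base consensus with up to 13 bases between them, with at most 3 mismatches in 20 positions and the core C and G of both copies kept. SERPINA1 lies at chr14:94390636-94390885 on the minus strand and SERPINB5 at chr18:63476708-63476957 on the plus strand. SERPINH1 lies at chr11:75562223-75562472 and SERPINI1 at chr3:167735471-167735720, both on the plus strand. SERPINB9 lies at chr6:2903310-2903559 and SERPINE2 at chr2:224031479-224031728, both on the minus strand.
SERPINB5: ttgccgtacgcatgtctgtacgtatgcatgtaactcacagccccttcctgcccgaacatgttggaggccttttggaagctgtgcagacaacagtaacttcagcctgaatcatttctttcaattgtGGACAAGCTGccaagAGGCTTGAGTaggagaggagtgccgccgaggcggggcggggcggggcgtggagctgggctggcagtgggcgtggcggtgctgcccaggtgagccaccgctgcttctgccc
SERPINA1: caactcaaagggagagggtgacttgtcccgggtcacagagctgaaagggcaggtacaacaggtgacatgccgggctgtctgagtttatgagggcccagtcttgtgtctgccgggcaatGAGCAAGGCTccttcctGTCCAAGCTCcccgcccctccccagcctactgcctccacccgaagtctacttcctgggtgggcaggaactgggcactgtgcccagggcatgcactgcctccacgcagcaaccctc
SERPINH1: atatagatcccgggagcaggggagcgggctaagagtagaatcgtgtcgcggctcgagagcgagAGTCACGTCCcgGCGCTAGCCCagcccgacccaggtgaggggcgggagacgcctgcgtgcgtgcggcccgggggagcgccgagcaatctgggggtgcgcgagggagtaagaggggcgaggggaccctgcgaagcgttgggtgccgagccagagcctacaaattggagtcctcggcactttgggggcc
SERPINE2: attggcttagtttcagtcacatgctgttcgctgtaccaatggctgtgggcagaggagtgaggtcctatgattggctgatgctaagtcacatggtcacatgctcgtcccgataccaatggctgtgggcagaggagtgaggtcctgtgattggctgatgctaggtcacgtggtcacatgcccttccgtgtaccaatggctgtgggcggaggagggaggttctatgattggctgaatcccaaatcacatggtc
SERPINB9: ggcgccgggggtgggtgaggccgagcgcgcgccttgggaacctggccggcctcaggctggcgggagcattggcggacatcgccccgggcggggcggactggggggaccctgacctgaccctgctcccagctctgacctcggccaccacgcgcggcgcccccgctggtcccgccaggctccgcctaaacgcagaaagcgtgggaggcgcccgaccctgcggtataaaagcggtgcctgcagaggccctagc
SERPINI1: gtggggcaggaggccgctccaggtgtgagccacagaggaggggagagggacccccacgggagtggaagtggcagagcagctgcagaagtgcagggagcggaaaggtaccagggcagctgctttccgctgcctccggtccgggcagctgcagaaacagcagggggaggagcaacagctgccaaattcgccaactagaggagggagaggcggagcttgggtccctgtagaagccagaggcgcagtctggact
SERPINB5, SERPINA1 and SERPINH1 held a match, and SERPINE2, SERPINB9 and SERPINI1 held none. Windows for 12 of the 16 expressed serpins were in the table, 21 windows in all, each 250 bases before to 50 after a start. A match was found in 5 of the 21, in SERPINB2, SERPINB5, SERPINA1, SERPINB6 and SERPINH1, against 12.8% of all 35116 promoter windows. The element reads the same on both strands, and none of these 21 windows held a perfect 10-base copy, which 6.63% of all windows did. A match describes letters in a window and no binding was measured. SERPINC1, SERPINF1, SERPINF2 and SERPING1 had no entry.

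The 26 genes lie on 10 chromosomes. All 8 clade A rows are within 0.344 megabases of chromosome 14, and only SERPINA1 of these was expressed. Chromosome 18 holds 5 clade B genes and chromosome 6 holds another 3, and 7 of these 8 were expressed. SERPINF2 (chromosome 17, 1742836 to 1755265, plus strand) and SERPINF1 (1762029 to 1777565, plus strand) are neighbours with 6.76 kilobases between them (GRCh38, GENCODE v44). The 10 that were not expressed were SERPINA2, SERPINA3, SERPINA5, SERPINA6, SERPINA9, SERPINA10, SERPINA11, SERPINB10, SERPIND1 and SERPINE3, and none exceeded 6 counts in any library. These counts were too low for any comparison. Among expressed members, exons of SERPINB8 overlap HMSD by 370 bases on the same strand and an antisense gene by 153, and those of SERPINI2 overlap WDR49 by 127 on the same strand, so reads there may be shared.

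In cells with the GFP-only plasmid at 6 h, SERPINH1, which encodes the collagen chaperone HSP47, had a level per length, in CPM per kilobase of annotated exon, of 11.8 ± 0.699 (SD, n = 3). SERPINB6, an intracellular inhibitor of cathepsin G, followed with 9.04 ± 0.38. These levels did not overlap, and the other 14 expressed genes lay below them.
The neuronal tissue plasminogen activator inhibitor SERPINI1 stood at 4.52 ± 0.476. The elastase inhibitor SERPINB1 at 2.63 ± 0.0806 and the granzyme B inhibitor SERPINB9 at 2.5 ± 0.269 did not differ beyond their spread. At the other end, the pigment epithelium-derived factor gene SERPINF1 had 2 counts over all 3 libraries and the maspin gene SERPINB5 had 1 in each. SERPINB6 is annotated with many isoforms over 13201 exon bases, so its level per length depends on that choice.

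**Figure D1:**
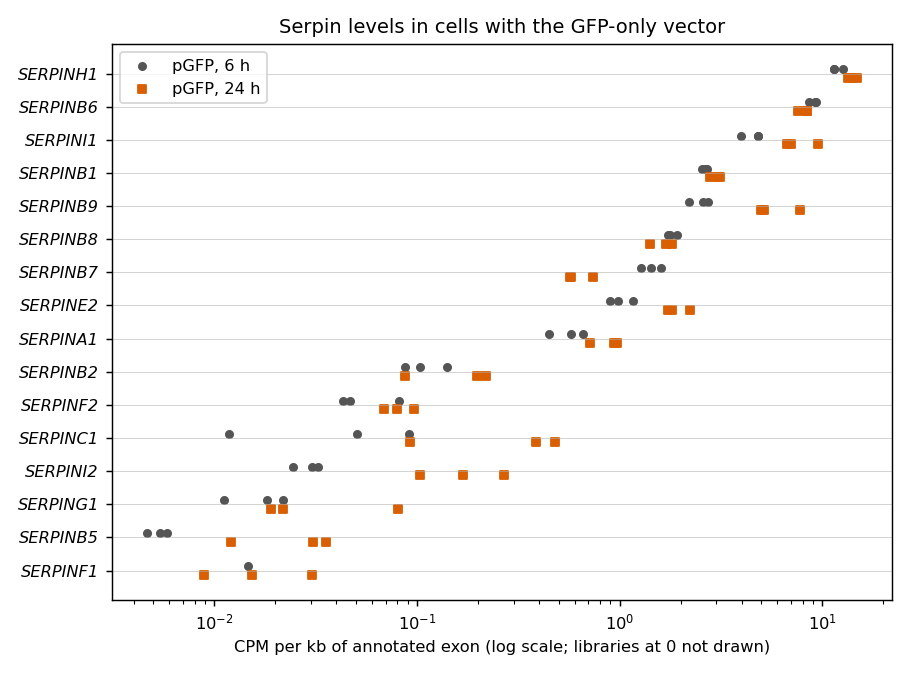
Level per length of the 16 expressed serpins in each pGFP library, in CPM per kilobase of annotated exon on a log axis. Circles are the 3 libraries at 6 h and squares those at 24 h, and libraries at 0 are not drawn. Of these 16, SERPINH1 has the highest mean at both times, and SERPINF1 and SERPINB5 have the lowest.

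Between 6 h and 24 h the same GFP-only cells changed in 8 of the 16 expressed serpins, against 41.2% of all 21335 genes tested. Of these, 7 rose (SERPINA1, SERPINB9, SERPINC1, SERPINE2, SERPINH1, SERPINI1 and SERPINI2) and 1 fell (SERPINB7), beside 19.0% of all genes higher and 22.3% lower. SERPINI2 met the expression rule only in pGFP at 24 h, so it is among the 16 through the group where it was high. In bulk RNA, fewer cells expressing a gene and less RNA of it per cell cannot be told apart.
SERPINB7, an intracellular serpin called megsin, was at 3.75, 3.34 and 4.20 CPM at 6 h and at 1.51, 1.95 and 1.49 CPM at 24 h, without overlap (log2 fold change -1.19, adjusted P = 5.9e-06, edgeR quasi-likelihood test with Benjamini-Hochberg adjustment). SERPINB9 moved the other way, from 9.12, 11.3 and 10.6 CPM to 32.2, 20.7 and 21.3 CPM (log2 fold change 1.26, adjusted P = 8.7e-06, edgeR). Its libraries did not overlap between the times either.
At 6 h SERPINI1 was at 10.2, 8.46 and 10.2 CPM, SERPINA1 at 2.82, 2.21 and 3.24 CPM and SERPINH1 at 71.8, 79.2 and 71.4 CPM. The 24 h values of these genes and all values of SERPINE2 stand with the comparisons of wild type p53, and in all 4 the 24 h libraries lay above the 6 h libraries. The protease nexin gene SERPINE2 rose by 0.91 and SERPINI1 by 0.77 on the log2 scale, with adjusted P of 4.2e-05 and 0.00020 in edgeR. SERPINA1, the elastase inhibitor alpha-1 antitrypsin, rose by 0.63 (edgeR adjusted P = 0.012), a call that was lost without pGFP replicate 2 at 24 h (0.055) or at 6 h (0.077). SERPINH1 rose by 0.25 (edgeR adjusted P = 0.0034). The antithrombin gene SERPINC1 and SERPINI2 rose from 1, 4 and 9 counts to 31, 7 and 29 counts and from 4, 3 and 5 counts to 27, 20 and 12 counts, with log2 fold changes of 2.54 and 2.56 (edgeR adjusted P = 0.0035 and 0.0030). With no p53 in these cells, each comparison between plasmids below was made within 1 time.

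Wild type p53 at 24 h raised 5 serpins and lowered 3, which is 8 of the 16 tested or 50%, against 35.0% of all 21335 genes tested, 20.5% higher and 14.5% lower. The 5 that rose were the non-inhibitory members SERPINF1 and SERPINB5, the plasmin inhibitor SERPINF2, the clade E member SERPINE2, and SERPINA1. The 3 that fell were SERPINB9, SERPINI1 and SERPINH1. SERPINB5 met the expression rule only in wild type p53 at 24 h, and SERPINF1 only there and in p53 O6-meG at 24 h. SERPINF2 met it only with wild type p53 at both times and in p53 TM at 24 h. These genes are thus among the 16 through groups where they were high, and the share of 50% is partly set by the rule. Called changes of 2-fold or more were seen in 4 of the 16 tested, where 11.2% of all genes tested met both limits. SERPINF1, SERPINB5 and SERPINF2 are among these 4. The median log2 fold change over the 16 was 0.02, beside 0.01 over all genes.

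**Figure D2:**
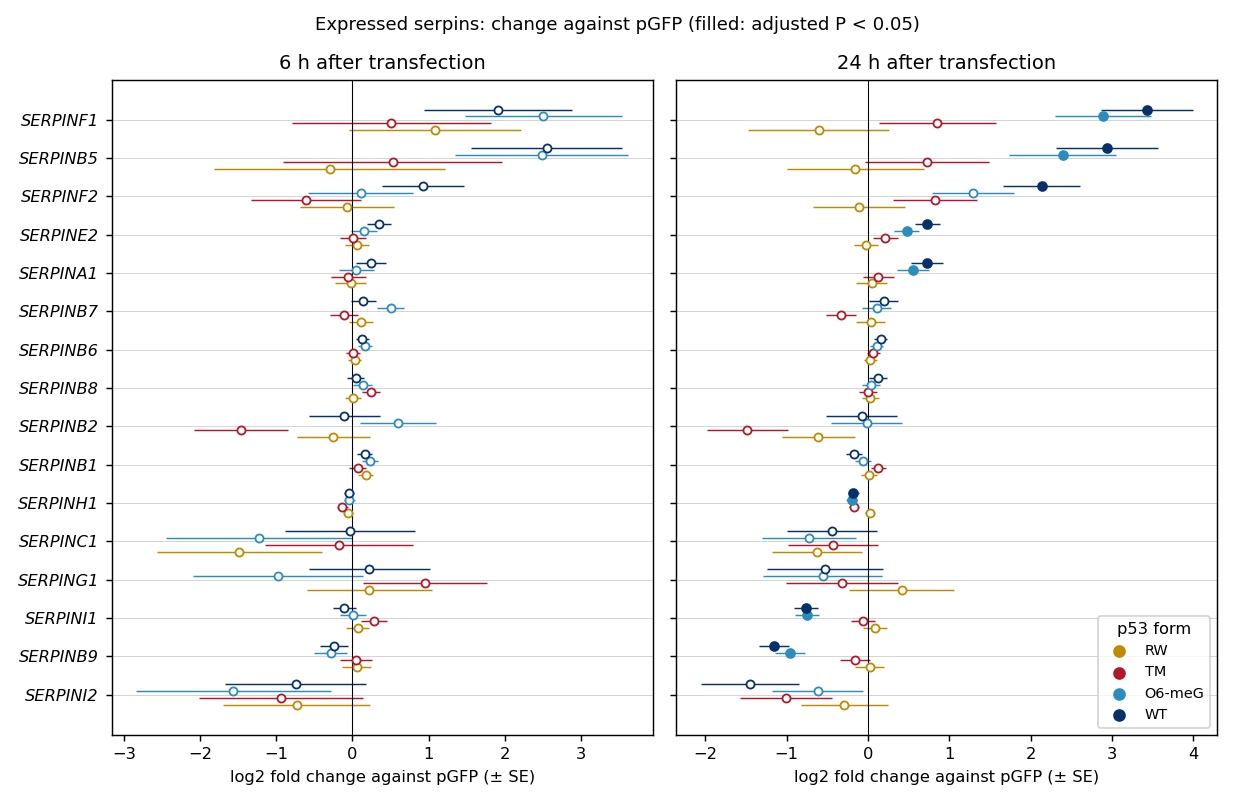
Log2 fold change against pGFP at the same time for the 16 expressed serpins, with bars of 1 SE on either side. Each of the 4 p53 forms has its own colour, and filled points have an adjusted P below 0.05. At 6 h no point is filled. At 24 h 8 points are filled for wild type p53 and 7 for p53 O6-meG, and none for p53 TM or RW mutant p53.

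SERPINE2, which inhibits thrombin and urokinase, was at 19.8, 16.2 and 15.5 CPM in pGFP and at 35.9, 26.5 and 23.2 CPM with wild type p53. Every wild type library was above every pGFP library (log2 fold change 0.73, SE 0.15, adjusted P = 3.5e-04, edgeR). SERPINI1 showed the opposite direction, at 20.3, 14.8 and 14.2 CPM in pGFP and 11.3, 9.27 and 8.42 CPM with wild type p53. Here too the groups did not overlap, and the fall was 0.76 on the log2 scale (SE 0.15, adjusted P = 2.2e-04, edgeR).
SERPINB2, an inhibitor of urokinase, was at 0.239, 0.544 and 0.597 CPM in pGFP and 0.250, 0.430 and 0.641 CPM with wild type p53, groups that overlapped (log2 fold change -0.07, 95% interval 0.510- to 1.77-fold, edgeR adjusted P = 0.92).

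SERPINF1, SERPINB5 and SERPINF2 had the largest rises but rest on few reads. SERPINF1 went from 1, 4 and 2 counts in pGFP replicates to 39, 26 and 15 counts with wild type p53, which is 0.0266, 0.0906 and 0.0459 CPM against 0.974, 0.559 and 0.356 CPM. The summed counts gave a ratio of 11.1 (exact 95% interval 5.16 to 28.6, counting error only), and the edgeR log2 fold change was 3.43 (adjusted P = 2.5e-05). The protein it encodes limits vessel growth and inhibits no protease.
Maspin, the product of SERPINB5, is likewise not a protease inhibitor and is known as a suppressor of invasion in epithelial tumours. SERPINB5 was at 0.133, 0.0453 and 0.115 CPM in pGFP and at 0.824, 1.01 and 0.427 CPM with wild type p53. All wild type libraries were above all pGFP libraries, with 98 counts against 12, a ratio of 7.96 (exact 95% interval 4.36 to 15.9), and an edgeR log2 fold change of 2.94 (adjusted P = 5.8e-04).
SERPINF2 encodes alpha-2 antiplasmin, the fast inhibitor of plasmin. Its level was 0.186, 0.227 and 0.161 CPM in pGFP and 0.999, 0.775 and 0.783 CPM with wild type p53, without overlap. The 109 counts against 24 gave a ratio of 4.43 (exact 95% interval 2.82 to 7.20), and the edgeR log2 fold change was 2.14 (adjusted P = 8.0e-04). Even after these rises, all 3 genes stayed near or below 1 CPM.

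SERPINA1 was at 3.51, 4.78 and 4.57 CPM in pGFP and at 6.87, 7.92 and 6.52 CPM with wild type p53 at 24 h. The groups did not overlap (log2 fold change 0.73, SE 0.19, adjusted P = 0.0041, edgeR). SERPINB9, which protects cells from granzyme B, was at 32.2, 20.7 and 21.3 CPM in pGFP and at 12.2, 10.7 and 10.5 CPM with wild type p53. No library of either group came close to the other, and the fall of 1.15 on the log2 scale (SE 0.19, adjusted P = 2.1e-05, edgeR) was the largest among the called serpins.
SERPINH1 was at 93.0, 84.4 and 87.5 CPM in pGFP and 76.2, 79.2 and 79.0 CPM with wild type p53. The groups did not overlap, yet the fall of 0.18 on the log2 scale was small (adjusted P = 0.040, edgeR) and its call was lost without pGFP replicate 1 (adjusted P = 0.17), pGFP replicate 3 (0.067), wild type replicate 2 (0.066) or wild type replicate 3 (0.062). The other 7 calls held with each library left out in turn.
Replicate numbers paired the libraries at 24 h. Replicate 1 was the highest library in all 5 groups for 5 serpins, SERPINB9, SERPINE2, SERPING1, SERPINI1 and SERPINI2, and the lowest in all 5 groups for SERPINB6. With the replicate as a block in edgeR, 10 serpins were called, the added ones being SERPINI2 (log2 fold change -1.49, adjusted P = 0.0025) and SERPINB6 (0.16, adjusted P = 0.013).

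**Figure D3:**
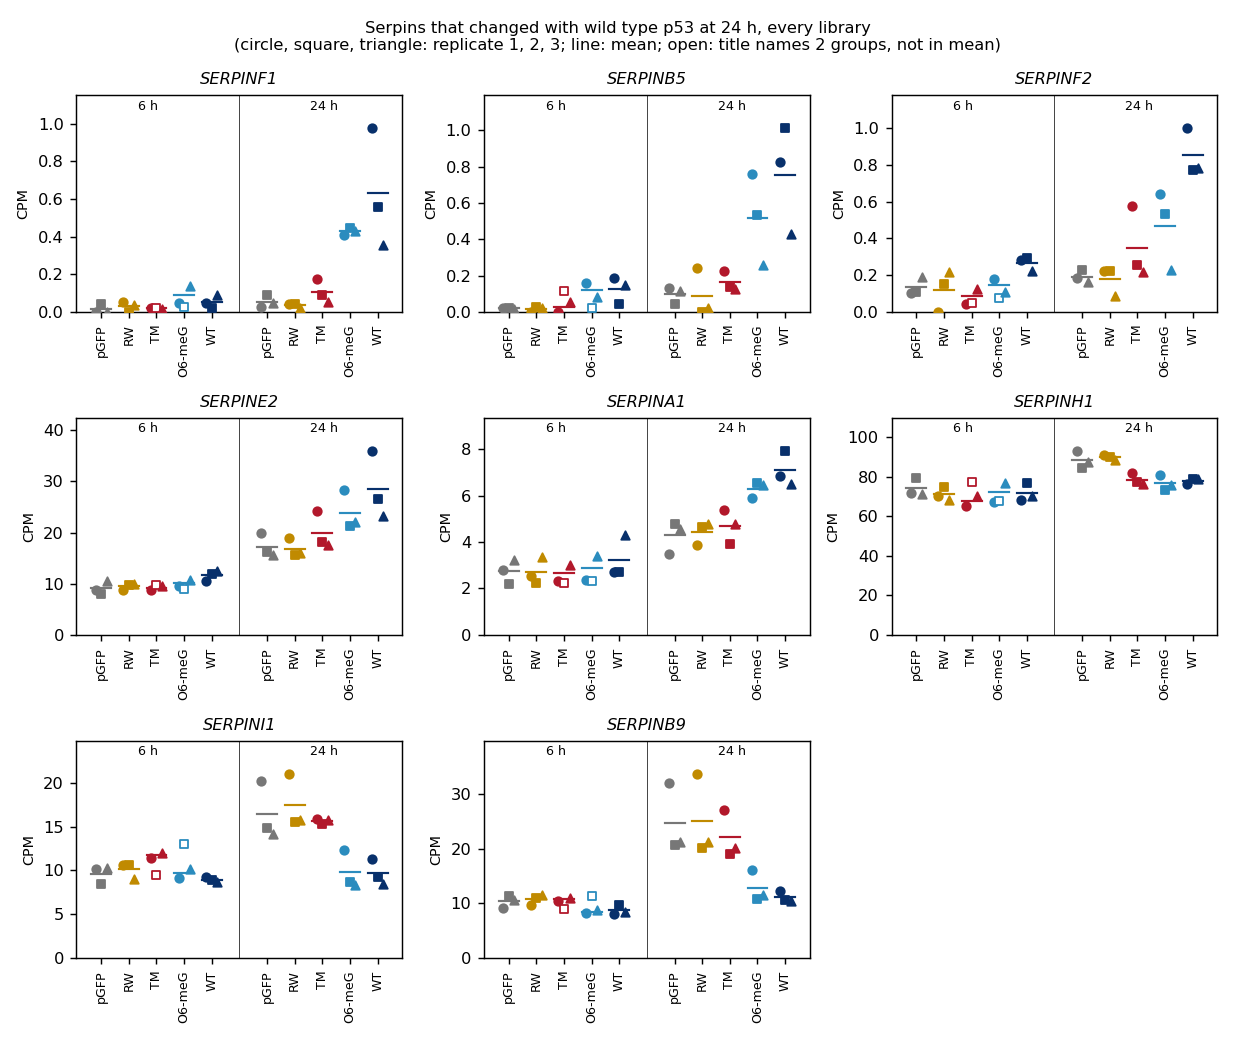
CPM of the 8 serpins that changed with wild type p53 at 24 h, in all 30 libraries, by p53 form at 6 h and at 24 h. Circles, squares and triangles are replicates 1, 2 and 3, lines are group means, and open squares are the 2 libraries whose titles name both groups. For none of the 8 genes do the 24 h wild type libraries overlap with those of pGFP or RW mutant p53.

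The other 8 expressed serpins were not called for wild type p53 at 24 h without the block. Intracellular SERPINB1, SERPINB6, SERPINB7 and SERPINB8, the last an inhibitor of furin, had log2 fold changes of -0.17, 0.16, 0.20 and 0.12. Their 95% intervals were 0.773- to 1.02-fold, 0.990- to 1.26-fold, 0.889- to 1.48-fold and 0.933- to 1.27-fold, so changes of 2-fold lie outside each of them. For SERPINC1 and for SERPING1, the complement C1 inhibitor, the intervals of 0.333- to 1.62-fold and 0.250- to 1.92-fold were wide, and a 2-fold fall lies inside both. SERPINI2 was at 0.717, 0.453 and 0.275 CPM in pGFP and 0.3, 0.0861 and 0.142 CPM with wild type p53, groups that overlapped (95% interval 0.155- to 0.862-fold, edgeR adjusted P = 0.063). Each wild type library was below the pGFP library of the same number, and SERPINI2 was called with the block, as given above, and with no filter on low counts (adjusted P = 0.035).

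At 6 h no serpin was called for wild type p53, against 10.3% of all genes tested, and 2 of 16 had an unadjusted P under 0.05 in edgeR. DESeq2 also called 0, and leaving out RW mutant replicate 1 at 24 h gave 1 call. With the replicate block 3 were called, SERPINE2 (adjusted P = 0.0013, edgeR), SERPINB9 (0.035) and SERPINB5 (0.047). With only the groups compared, SERPINE2 was called (adjusted P = 0.044, edgeR). SERPINB5 was at 0.0203, 0.0219 and 0.0174 CPM in pGFP, 1 count in each library, and at 0.188, 0.0456 and 0.147 CPM with wild type p53. All wild type libraries were higher, and the 20 counts against 3 gave a ratio of 6.59 with an exact 95% interval of 1.95 to 34.6 (edgeR adjusted P = 0.12).
SERPINE2 was at 8.81, 8.02 and 10.5 CPM in pGFP and 10.4, 12.0 and 12.4 CPM with wild type p53 (edgeR log2 fold change 0.35, adjusted P = 0.19). The groups overlapped only in that the highest pGFP library, at 10.5 CPM, lay just above the lowest wild type library.
Whether the wild type response differed between the times was tested as an interaction, in which 1 serpin was called against 6.51% of all genes. SERPINB9 had a log2 change of -0.24 at 6 h and -1.15 at 24 h, a difference of -0.91 (SE 0.26, adjusted P = 0.039, edgeR). Leaving out any of 8 libraries ended the call, pGFP replicate 1 and wild type replicates 2 and 3 at 24 h, and pGFP replicates 1, 2 and 3 and wild type replicates 2 and 3 at 6 h, with the highest adjusted P of 0.15 without pGFP replicate 1 at 24 h. Without replicate 1 of wild type, RW mutant or O6-meG or replicate 3 of pGFP, all at 24 h, 2 serpins were called. The SERPINB9 call was also lost when all 30 libraries were used as labelled (adjusted P = 0.055). With the block, fitted within each time, 4 serpins were called, SERPINB9, SERPINE2, SERPINI1 and SERPINB1.

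RW mutant p53 changed no serpin at either time, with 0 of 16 at an unadjusted P under 0.05 in edgeR and 0 called by DESeq2. Over all genes tested, 0.00469% were called, which is 1 gene. SERPINB9 was at 33.7, 20.2 and 21.3 CPM, with an interval of 0.784- to 1.32-fold against pGFP, and SERPINI1 at 21.1, 15.6 and 15.8 CPM, with 0.864- to 1.31-fold. For SERPINF1 and SERPINB5, at most 11 counts in any RW library at 24 h, the intervals of 0.190- to 2.27-fold and 0.271- to 2.98-fold were wide.

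The p53 O6-meG plasmid in cells with active repair changed 7 serpins at 24 h against pGFP, or 43.8% of those tested, against 29.5% of all genes, 18.1% higher and 11.3% lower. It raised SERPINA1, SERPINB5, SERPINE2 and SERPINF1 and lowered SERPINB9, SERPINH1 and SERPINI1. SERPINB5 and SERPINF1 met the expression rule only in groups where they were high, as given for wild type p53. This comparison shares the pGFP libraries with that of wild type p53. SERPINB9 was at 16.1, 10.7 and 11.5 CPM (log2 fold change -0.95, adjusted P = 2.6e-04, edgeR), and SERPINI1 at 12.3, 8.71 and 8.39 CPM (-0.75, adjusted P = 3.6e-04). Both lay below every pGFP library.
SERPINF1 was at 0.410, 0.448 and 0.429 CPM (log2 fold change 2.89, adjusted P = 4.4e-04, edgeR), and SERPINB5 at 0.762, 0.533 and 0.258 CPM (2.40, adjusted P = 0.0068). SERPINF2 was at 0.644, 0.533 and 0.229 CPM and was not called (1.29, adjusted P = 0.057, edgeR), but was with the block (1.26, adjusted P = 0.017). SERPINA1 at 5.92, 6.55 and 6.44 CPM (edgeR adjusted P = 0.032), SERPINE2 at 28.3, 21.3 and 22.1 CPM (0.017) and SERPINH1 at 81.1, 73.6 and 76.1 CPM (0.024) did not overlap with pGFP.
These 3 calls depended on single libraries. SERPINA1 lost its call without pGFP replicate 1 (adjusted P = 0.15), O6-meG replicate 2 (0.085), O6-meG replicate 3 (0.070) or the RW mutant replicate 1 at 6 h (0.054). SERPINE2 lost its own without O6-meG replicate 1 (0.12), pGFP replicate 2 (0.067) or pGFP replicate 3 (0.080), and SERPINH1 without pGFP replicate 1 (0.12), O6-meG replicate 2 (0.11) or O6-meG replicate 3 (0.063).
Tested directly against wild type p53, no serpin differed at 6 h or 24 h in edgeR or DESeq2, with 0 of 16 at an unadjusted P under 0.05. Over all genes 0% were called at 6 h and 0.00937% at 24 h. The intervals at 24 h were 0.677- to 1.04-fold for SERPINE2 and 0.304- to 1.02-fold for SERPINF2. At 6 h against pGFP, 0 serpins were called, beside 4.85% of all genes, with 4 of 16 at an unadjusted P under 0.05 and 0 called by DESeq2. Without O6-meG replicate 1 there was 1 call. With the replicate block there were 2, SERPINB6 (0.19, adjusted P = 0.030, edgeR) and SERPINB7 (0.49, adjusted P = 0.025).

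In p53 TM cells at 24 h no serpin was called against pGFP, where 10.7% of all genes were, and 2 of 16 had an unadjusted P under 0.05. DESeq2 called 2, SERPINH1 (log2 fold change -0.22, adjusted P = 0.0092) and SERPINB2 (-1.55, adjusted P = 0.043). Leaving out replicate 1 of pGFP, wild type, RW mutant or O6-meG, or O6-meG replicate 3, at 24 h gave 1 call in edgeR. With the replicate block, edgeR called 4, SERPINE2 (0.21, adjusted P = 0.036), SERPINH1 (-0.17, adjusted P = 0.012), SERPINI2 (-1.05, adjusted P = 0.039) and SERPINB2 (-1.51, adjusted P = 0.0024).
The same cells differed from wild type p53 in 10 of the 16 serpins, or 62.5%, against 21.2% of all genes, 9.29% higher and 11.9% lower. SERPINA1, SERPINB2, SERPINB5, SERPINB7, SERPINE2, SERPINF1 and SERPINF2 were lower in p53 TM, and SERPINB1, SERPINB9 and SERPINI1 were higher. Here too SERPINB5 and SERPINF1 are among the 16 only through groups where they were high. The count fell to 4 without TM replicate 3, to 5 without TM replicate 2, and to 6 without wild type replicate 1 or 2. It was also 4 when only these 2 groups were fitted. SERPINI1, SERPINB9, SERPINF1 and SERPINB5 kept their calls throughout these alternatives.

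SERPINE2 was at 24.1, 18.1 and 17.6 CPM, which overlapped wild type replicate 3 at 23.2 CPM (-0.52, adjusted P = 0.014, edgeR), and its call was lost without wild type replicate 1 (0.17) or TM replicate 2 (0.073) or 3 (0.082).
SERPINI1 was at 15.9, 15.3 and 15.8 CPM, above all wild type libraries (log2 difference 0.70, adjusted P = 0.0015, edgeR), and SERPINB9 at 27.1, 19.1 and 20.2 CPM (0.99, adjusted P = 4.5e-04). SERPINI1 lay inside the range of pGFP, and SERPINB9 had 2 libraries just below it.
SERPINF1 was at 0.175, 0.0926 and 0.0545 CPM, 14 counts in all, and below every wild type library (log2 difference -2.58, adjusted P = 6.1e-04, edgeR). Against pGFP its ratio of summed counts was 1.81 (exact 95% interval 0.685 to 5.31). SERPINB5 was at 0.225, 0.139 and 0.127 CPM, also below every wild type library (log2 difference -2.22, adjusted P = 0.0067, edgeR), with a ratio to pGFP of 1.66 (exact 95% interval 0.788 to 3.69).
SERPINF2 was at 0.576, 0.255 and 0.218 CPM (log2 difference from wild type -1.31, adjusted P = 0.031, edgeR), with a ratio to pGFP of 1.74 (exact 95% interval 1.04 to 2.98). That interval covers counting error only, and SERPINF2 was not called against pGFP in edgeR. TM replicate 1 stood above the other TM libraries, with same-numbered ratios to pGFP of 3.10, 1.12 and 1.36 for replicates 1, 2 and 3. The SERPINF2 call against wild type was lost without wild type replicate 1 (0.10) or 2 (0.051) or TM replicate 2 (0.12) or 3 (0.15). SERPINA1 was at 5.38, 3.91 and 4.79 CPM, below every wild type library (log2 difference -0.60, adjusted P = 0.026, edgeR), and was lost without wild type replicate 1 (0.055) or 2 (0.10) or TM replicate 2 (0.14) or 3 (0.063).

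For the 8 serpins that changed with wild type p53, the part of that change present in p53 TM at 24 h, as the difference of mean CPM from pGFP divided by that of wild type, ran from 9.22% to 96.3% with a median of 16.8%. In p53 O6-meG it ran from 42.0% to 112% with a median of 68.4%. These are descriptions, since both shares use the same pGFP and wild type libraries. The 8 genes were also chosen by the wild type change that the shares are divided by, and such a choice can lower the shares. Tested directly at 24 h, no serpin differed between p53 O6-meG and wild type p53. In p53 TM the share was 9.22% for SERPINF1, with 0.418% to 15.7% over replicates taken in same-numbered sets, and 10.1% for SERPINB5, with 3.95% to 13.4%. It was 24.5% for SERPINE2, with 19.0% to 27.4%. Replicates spread more widely for SERPINI1 (11%, from -28.1% to 48.8%), SERPINA1 (14.6%, from -27.7% to 55.8%) and SERPINF2 (24.0%, from 5.11% to 47.9%), so the order of the low shares is not set by these data.
SERPINH1 stood apart with 96.3%, with 66.4% to 137% over replicates. This share is of a small wild type fall whose call was lost without some libraries. Against pGFP, SERPINH1 in p53 TM was not called (log2 fold change -0.17, adjusted P = 0.11, edgeR). It was at 81.8, 77.2 and 76.4 CPM in p53 TM, below all 3 pGFP libraries at 84.4 to 93.0 CPM and level with wild type p53, from which it differed by 0.01 on the log2 scale (95% interval 0.914- to 1.10-fold, edgeR adjusted P = 0.96).

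**Figure D4:**
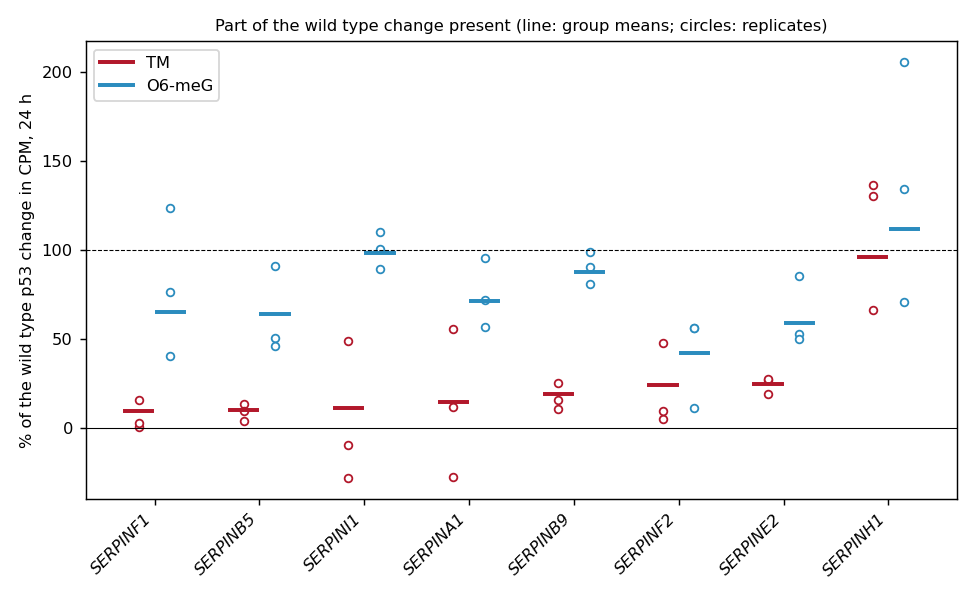
Part of the 24 h wild type change in CPM that was present in p53 TM and in p53 O6-meG, in percent, for the 8 serpins that changed with wild type p53. Lines are from group means and circles from the 3 replicates, each against the pGFP and wild type library of the same number. Shares in p53 TM lie between 9.22% and 24.5% except for SERPINH1 at 96.3%, and the replicates of SERPINI1, SERPINA1, SERPINF2 and SERPINH1 spread widely.

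For SERPINB2 and SERPINB7, the p53 TM mean was the lowest of all groups at each time, and wild type p53 gave no call. At 6 h these p53 TM means are of 2 libraries. With the third library as labelled, the SERPINB7 mean was 3.89 CPM in p53 TM, above 3.76 CPM in pGFP. That ranking of SERPINB7 at 6 h thus depends on leaving the library out, whereas SERPINB2 stayed lowest at 0.181 CPM. At 24 h SERPINB2 was at 0.15, 0.116 and 0.218 CPM in p53 TM, 6, 5 and 12 counts, against 0.239, 0.544 and 0.597 CPM in pGFP. All TM libraries lay below all pGFP libraries, by -1.48 on the log2 scale (SE 0.50, adjusted P = 0.057, edgeR). Against wild type p53 the difference was -1.41 (edgeR adjusted P = 0.045), and this call was lost without any of 15 libraries, the highest adjusted P being 0.21 without wild type replicate 3. RW mutant replicate 1 was lower still, at 0.0886 CPM.
At 6 h, the 2 TM libraries with clear titles had 0.0904 and 0.125 CPM of SERPINB2, against 0.284, 0.240 and 0.383 CPM in pGFP. The third library labelled p53 TM, which has both names in its title, was at 0.327 CPM. At 24 h SERPINB1 was at 9.06, 10.9 and 9.91 CPM in p53 TM and 7.70, 8.76 and 7.85 CPM with wild type p53, without overlap (log2 difference 0.30, adjusted P = 0.029, edgeR). SERPINB7 was at 1.08, 1.53 and 1.34 CPM in p53 TM, below the 1.62, 2.09 and 1.97 CPM of wild type p53 (-0.52, adjusted P = 0.040, edgeR). Both calls were lost without some libraries: SERPINB1 without wild type replicate 1 or 3 or TM replicate 2 or 3, and SERPINB7 without any of 8.

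Compared with p53 O6-meG, which differs from p53 TM only in O6-benzylguanine, 3 serpins differed at 24 h, against 10.0% of all genes, 3.47% higher and 6.58% lower. SERPINB9 (log2 difference 0.79, adjusted P = 0.0073, edgeR) and SERPINI1 (0.68, adjusted P = 0.0045) were higher in p53 TM, and SERPINF1 (-2.03, adjusted P = 0.013) was lower. SERPINF1 met the expression rule only in groups where it was high, as given above. All 3 calls were lost when only these 2 groups were fitted. Leaving out O6-meG replicate 2 or TM replicate 2 or 3 brought the count to 2, and leaving out RW mutant replicate 1 brought it to 5. With the replicate block 7 serpins were called, the 4 added being SERPINE2 (-0.26, adjusted P = 0.0078), SERPINA1 (-0.42, adjusted P = 0.010), SERPINB5 (-1.61, adjusted P = 0.013) and SERPINB2 (-1.48, adjusted P = 0.0034).
At 6 h no serpin was called for p53 TM against pGFP, wild type or O6-meG, where 0.202%, 10.9% and 4.10% of all genes were, and 1, 3 and 2 of 16 had an unadjusted P under 0.05 in edgeR. DESeq2 called 0 in each, and against O6-meG 1 was called without O6-meG replicate 1 at 6 h or RW mutant replicate 1 at 24 h. With all 30 libraries as labelled the counts were also 0. With the replicate block 4 were called against wild type, SERPINE2 (adjusted P = 0.0045, edgeR), SERPINB9 (0.0071), SERPINI1 (0.013) and SERPINB2 (0.038). Against O6-meG the block called 4, SERPINB2 (0.0034), SERPINB7 (0.015), SERPINB9 (0.031) and SERPING1 (0.037). With only the groups compared, SERPINI1 was called against wild type (adjusted P = 0.0097, edgeR). With the other grouping of the 2 doubtful libraries 1 serpin was called against wild type, SERPINI1 (log2 difference 0.44, adjusted P = 0.038, edgeR), and 1 against O6-meG, SERPINB7 (-0.66, adjusted P = 0.0082).

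Genes that serpins act on or with were taken from lists. Of 12 partners of plasminogen activation, 10 were tested, and wild type p53 at 24 h raised 2 and lowered 0, with a median log2 fold change of 0.20. Over all genes 20.5% rose and 14.5% fell, so 2 of 10 is near that share. PLAU, which encodes urokinase, a protease that SERPINE2 can inhibit, was at 107, 178 and 208 CPM in pGFP and 245, 299 and 324 CPM with wild type p53, without overlap (log2 fold change 0.81, adjusted P = 0.0021, edgeR). The plasminogen receptor subunit S100A10 rose by 0.41 (edgeR adjusted P = 0.0068).
Of 28 target proteases 17 were tested, 5 rose and 1 fell, with a median of -0.08. Coagulation factor XII (F12) rose by 0.58 (edgeR adjusted P = 0.0077) and FURIN, a target of SERPINB8, by 0.28 (adjusted P = 0.0034), with PRTN3, HPN and CASP1 the other 3, while CASP4 fell by 0.27 (adjusted P = 0.019). Of 17 collagens and collagen-modifying enzymes that work beside SERPINH1, 14 were tested, 7 rose and 2 fell, with a median of 0.19. The prolyl hydroxylase subunit P4HA2 rose by 1.12 (edgeR adjusted P = 5.5e-07) and CRTAP by 0.61 (adjusted P = 1.9e-06), whereas P4HA1 fell by 0.56 (adjusted P = 1.7e-07) and COL1A1 by 1.53 (adjusted P = 3.7e-04). In p53 TM against wild type p53 at 24 h, 0 plasminogen partners were higher and 3 lower, 0 target proteases were higher and 3 lower, and 1 collagen partner was higher and 5 lower, beside 9.29% of all genes higher and 11.9% lower.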

How the data were processed

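RNA of GFP-sorted H1299 cells was measured by single-read sequencing of stranded, rRNA-depleted libraries. The deposited file holds raw counts: the authors aligned reads to hg38 with STAR 2.5.3a and counted them over GENCODE v27 genes in featureCounts (Subread 1.5.2), with no normalization. Whether the counting used strand is not given in the sources used here. Of 39359 rows, 38904 were matched to GENCODE v44 for names and coordinates and 455 were not. Another 8 annotated serpin genes had no row and were not analysed here. The rule found 27 serpin rows, and 1 of them and 1 gene outside the family are not reported here. Members and lists were chosen with earlier results of these data known.

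The test was edgeR 4.0.16's quasi-likelihood test in R 4.3.3, with TMM scaling, on 28 libraries of 10 groups in 1 fit. After filterByExpr by group, 21335 genes remained, among them all 16 expressed serpins. The 2 libraries with conflicting titles, the second replicates of the O6-meG and TM groups at 6 h, were left out on their labels alone. Each of 16 comparisons was adjusted by Benjamini-Hochberg across its 21335 genes, and a call is an adjusted P below 0.05. CPM values use TMM factors of all 30 libraries. The 95% intervals of fitted folds use the quasi-likelihood degrees of freedom. Exact intervals on counts (Clopper-Pearson, 95%) cover counting error only.

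Every other serpin row was accounted for, and serpins called in any comparison were described with values in the libraries compared. Genes of the partner lists were named only if called for wild type p53. Alternatives were DESeq2 size factors, the DESeq2 1.42.0 Wald test, no filter on low counts, at least 10 counts in every library, only the groups compared, both groupings of the doubtful libraries, a replicate block within each time and each library left out in turn. Deviations from group means correlated above 0.1 in 30 of 30 same-numbered pairs at 24 h (median 0.644, different numbers -0.452). At 6 h they did so in 8 of 9 (median 0.309, different numbers -0.186). These 9 pairs are of pGFP, wild type and RW mutant p53 only. Pairing of the O6-meG and TM groups at 6 h was not checked, which limits the block calls there. The numbers were taken to pair libraries at 24 h, and pairing at 6 h went the same way but was weaker. The main fit did not use the pairing at either time, so its standard errors, intervals and missing calls are those of unpaired libraries. No 2 replicates of a group agreed within sampling noise. The fitting was tested on simulated counts.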

Additional observations from a re-analysis of the deposited data

Results flagged for a closer look

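SERPINB9 had a wild type p53 response that differed between the times by -0.91 on the log2 scale in a test of the difference itself (adjusted P = 0.039, edgeR quasi-likelihood test with Benjamini-Hochberg adjustment). In pGFP it was at 9.12, 11.3 and 10.6 CPM at 6 h and 32.2, 20.7 and 21.3 CPM at 24 h, and with wild type p53 at 8.04, 9.73 and 8.46 CPM and 12.2, 10.7 and 10.5 CPM. In both groups every 24 h library was above every 6 h library. Replicate 1 was the highest library of all 5 groups at 24 h, and without pGFP replicate 1 at 24 h the adjusted P was 0.15. Why the responses differed was not tested.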

How the results depend on the processing

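Of 37 called serpin results, 22 held under every alternative that gave them a value and with each library left out, and 2 of the other 15 were lost only to a left-out library. No result changed direction. For wild type p53 at 24 h, 7 of 8 calls held throughout, for TM against wild type 4 of 10, and for TM against O6-meG 0 of 3. The cause of each change was not tested. The replicate block ended no call: it gave 3 for wild type (SERPINE2, adjusted P = 0.0013, SERPINB9, 0.035, and SERPINB5, 0.047), 2 for O6-meG, 4 for TM against wild type and 4 for TM against O6-meG at 6 h, 4 for TM against pGFP and 7 for TM against O6-meG at 24 h, and 4 for the change of the wild type response; it added 3 to the pGFP time course, and no other call changed beyond those given with the results. With only the groups compared, 1 was called for wild type at 6 h, 1 for TM against wild type at 6 h and 4 at 24 h, and 0 for TM against O6-meG at 24 h. At least 10 counts in every library left 4 for wild type at 24 h and 6 for TM against wild type, with 9 serpins tested, so serpins of few counts have no value there, and SERPINH1 lost its wild type call (0.058). TM against pGFP at 24 h had 2 with DESeq2 size factors, 2 with the DESeq2 test, 1 with no filter and 1 with the other grouping, which also gave 1 for TM against wild type and 1 against O6-meG at 6 h. The change of the wild type response had 2 with DESeq2, 2 with no filter and 0 as labelled. With 10 counts asked in all 30 libraries, 9 serpins were expressed. Leaving out libraries gave 0 to 1 for wild type, for O6-meG and for TM against O6-meG at 6 h, 7 to 9 for wild type, 5 to 8 for O6-meG, 0 to 1 for TM, 4 to 10 for TM against wild type and 2 to 5 for TM against O6-meG at 24 h, 7 to 8 for the pGFP time course and 0 to 2 for the change of response. At 6 h SERPINF1, SERPINB5, SERPING1 and SERPINC1 rest on few counts in some groups, which limits their precision.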
